A study of Mus musculus with 33 samples.

Results

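Glb1, Atp6v0e2, Mcoln2, Tbc1d5 and Rab11fip3 are 5 mouse genes whose products work in lysosomes and endosomes, and their RNA was followed across 4 lines of CH12 cells in the resting and the activated state. They were put forward because their levels had been seen to differ between ZMYND8 knockout (KO) and wild-type (WT) lines or with activation, so their values in those comparisons are given as a description without a test. The value of a gene is the sum of the estimated counts of all numbered genomic regions that lie wholly inside its RefSeq span and inside no other gene, which gave 29 regions for the 5 genes. All 5 were among the 4485 of 10750 gene values that passed a filter on low counts. Such a value describes RNA from part of a gene: whether the reads come from exons or introns, and from which strand, is not known here, so it is not a level of mature mRNA.

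CH12 is a mouse B cell lymphoma line used to study immunoglobulin class switching, and ZMYND8 is a chromatin reader protein. Ribosome-depleted total RNA was sequenced from 24 cultures, 3 in each of 8 groups: parental WT cells, a WT clone and 2 ZMYND8 KO clones called KO1 and KO2, each unactivated or activated over 48 h. The activating stimulus is not named in the labels, each KO line and the WT clone are single clones, and the labels call the 3 cultures biological repeats and say no more, so p-values measure the spread between these cultures of 4 lines. A further 9 samples of the series, which are ChIP-seq and GRO-seq, were not analysed here.

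Lysosomes are acidic organelles that break down proteins, lipids and sugars delivered by endosomes, the secretory pathway and autophagy. Acid hydrolases do the cutting, a proton pump called the V-ATPase acidifies the lumen, channels such as the mucolipins release ions from it, and Rab GTPases with their effectors and inactivating proteins steer the traffic of endosomes to the lysosome or back to the cell surface. In B cells the same compartments process captured antigen for display on MHC class II molecules. Many lysosomal genes carry the motif CACGTG near their start, the core of an element bound by transcription factors of the TFEB family.

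This motif lies in a promoter window of 3 of the 5 genes, Glb1, Mcoln2 and Tbc1d5. These 3 genes also had higher region counts in unactivated KO than WT cultures, which was part of what selected the genes. A link between the motif and these levels was not tested. Each window runs from 250 bases before to 50 bases after a RefSeq start on GRCm38.p6, written 5′ to 3′ on the strand of the gene, with CACGTG in capitals. The Glb1 window is chr9:114400828-114401127 on the plus strand, the Mcoln2 window is chr3:146149924-146150223 on the plus strand, and the Tbc1d5 window is chr17:51179303-51179602 on the minus strand.
Glb1: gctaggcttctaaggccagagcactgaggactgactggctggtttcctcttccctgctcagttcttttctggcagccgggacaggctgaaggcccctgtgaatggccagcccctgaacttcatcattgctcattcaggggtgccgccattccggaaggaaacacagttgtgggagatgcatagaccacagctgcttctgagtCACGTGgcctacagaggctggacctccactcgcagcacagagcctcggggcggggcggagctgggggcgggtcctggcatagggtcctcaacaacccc
Mcoln2: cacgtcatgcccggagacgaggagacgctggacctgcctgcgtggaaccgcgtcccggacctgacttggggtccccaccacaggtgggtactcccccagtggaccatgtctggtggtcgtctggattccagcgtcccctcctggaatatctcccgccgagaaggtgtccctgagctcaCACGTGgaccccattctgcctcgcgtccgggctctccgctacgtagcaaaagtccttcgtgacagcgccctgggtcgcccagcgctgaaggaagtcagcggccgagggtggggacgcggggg
Tbc1d5: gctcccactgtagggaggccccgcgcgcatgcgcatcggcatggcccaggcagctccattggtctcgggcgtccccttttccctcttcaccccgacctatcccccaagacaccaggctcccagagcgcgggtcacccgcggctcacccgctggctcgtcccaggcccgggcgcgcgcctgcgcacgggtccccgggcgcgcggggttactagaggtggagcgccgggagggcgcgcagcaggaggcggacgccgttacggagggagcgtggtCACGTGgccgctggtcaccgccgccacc
Counted from the RefSeq start of its window, the motif begins 48 bases before it in Glb1, 72 bases before it in Mcoln2 and 22 bases after it in Tbc1d5. For Mcoln2 and Tbc1d5 this start lies inside the gene span given below. Distances of regions from the gene start are counted from the end of that span instead. Glb1 and Tbc1d5 share the 11-base stretch GTCACGTGGCC, and the longest stretch that Mcoln2 shares with either around the motif is CACGTGG. The motif, which reads the same on both strands, was absent from the windows of Atp6v0e2 and Rab11fip3 and from a second Tbc1d5 window. It occurred in a window of 8.09% of 27025 mouse genes and of 24.9% of 205 lysosome and endosome genes on the fixed lists. A match of letters is a description and not a measured binding site.

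Library totals ran from 28.99 to 34.07 M estimated counts, with a median of 32.1 M. Regions took 3.78% to 5.48% of these counts and gene values 0.78% to 1.2%, so the 5 genes were read from a small slice of each library. Levels are given in CPM, counts scaled to the library total, after correction by the trimmed mean of M values (TMM). The third unactivated parental WT culture correlated least with its own group, at a mean r of 0.848, and was kept; without it 7 in place of 4 listed genes were called between unactivated KO and WT lines. Regions inside Zmynd8 itself held 1.235 to 3.224 CPM in WT and 1.623 to 4.274 CPM in KO libraries; the position of the deletion is not given, so this checks nothing about the labels. Of 8 B cell markers 5 were measured, and their summed level ran from 16.72 to 42.15 CPM in unactivated WT, 32.26 to 46.39 in unactivated KO, 26.01 to 46.48 in activated WT and 45.44 to 62.09 in activated KO libraries, with Pax5 at 3.637 to 14.25 CPM and Ebf1 at 8.521 to 43.93 CPM in every library. Of the rest of these 5, Blk ran from 0.639 to 5.16 CPM in WT and from 2.66 to 7.16 CPM in KO libraries. Cd22 and Cd79a were at 0 in some libraries, with at most 0.372 and 0.483 CPM. The B cell markers that were not measured had no region. The only T cell marker with regions, Lck, lay between 0.152 and 0.815 CPM, with its KO range above its WT range in both states; 3 myeloid markers together lay between 0.334 and 1.23 CPM and 2 plasma cell markers between 0.122 and 1.13 CPM. The part of these marker differences in the results was not tested, and in bulk RNA fewer cells with a transcript and less of it per cell cannot be told apart.

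Glb1 encodes beta-galactosidase, the hydrolase that removes terminal galactose from glycolipids and glycoproteins in the lysosome. Its RefSeq span is chr9:114401078-114474379 on the plus strand, and 4 regions of 8193 bases in all lie in it and in no other gene. In unactivated cells its level was 3.45, 3.60 and 3.21 CPM in parental WT, 3.78, 4.16 and 4.04 CPM in the WT clone, 12.1, 11.5 and 14.1 CPM in KO1 and 15.8, 16.5 and 17.9 CPM in KO2. Every KO culture stood above every WT culture, and the lowest KO2 culture stood above the highest KO1 culture. In activated cells the level was 3.67, 3.99 and 2.94 CPM in parental WT, 3.87, 4.11 and 3.05 CPM in the WT clone, 8.41, 10.4 and 5.99 CPM in KO1 and 13.3, 16.5 and 8.24 CPM in KO2. The groups again did not overlap by genotype, and the culture numbered 3 was the lowest in all 4 activated lines.

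The fitted log2 difference of Glb1 between KO and WT lines was 1.97 ± 0.17 (SE, 6 against 6 cultures) without activation, a 3.92-fold higher level in KO. With activation it was 1.50 ± 0.16, or 2.84-fold. The log2 difference with activation was −0.04 ± 0.16 in WT and −0.50 ± 0.16 in KO lines, which gives a difference of activation between genotypes of −0.47 ± 0.23. These values were part of what selected the gene.

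**Figure D1:**
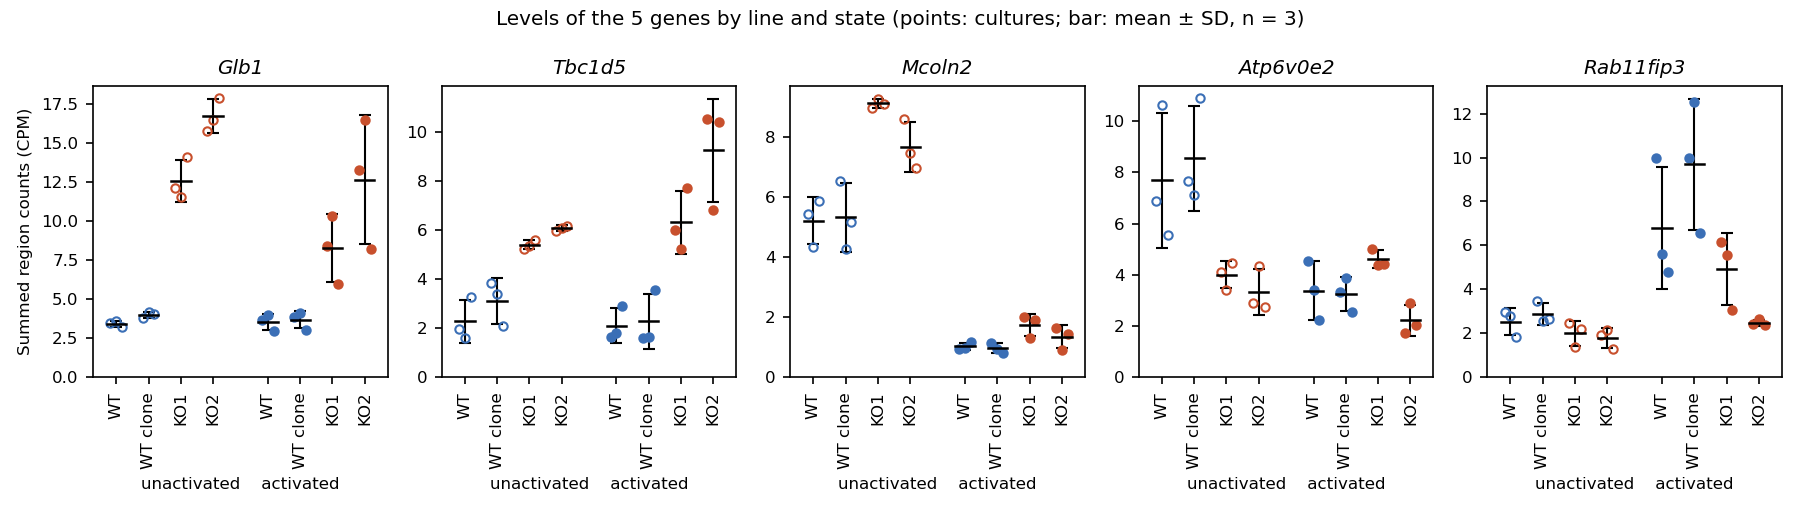
Levels of the 5 genes in CPM (linear axis from 0) in each culture, by line and state, with the mean and SD of 3 cultures; blue marks WT and red KO lines, open points unactivated and filled points activated cells. The KO cultures of Glb1 lie between 5.99 and 17.9 CPM, above every WT culture, and Mcoln2 is at or below 2.00 CPM in every activated culture.

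Most of the Glb1 count, and of its excess in KO cells, came from 1 distal region of the gene. The region at chr9:114464784-114468743, 65.7 kb from the gene start and 3960 bases long, held 93.0% of all Glb1 region counts; over gene values with at least 2 regions, 3127 in number, the strongest region held a median of 62.2%. Its counts summed over 6 libraries were 579 in unactivated WT, 2685 in unactivated KO, 605 in activated WT and 1930 in activated KO. Per total count, the KO to WT ratio of this region was 4.49 (95% counting interval 4.10 to 4.92) without and 3.32 (3.03 to 3.64) with activation. Intervals on regions cover counting error only. The region nearest the start, at chr9:114415599-114418709 and 16.1 kb into the gene, gave 65 and 62 counts in unactivated WT and KO and ratios of 0.922 (0.641 to 1.33) and 0.933 (0.666 to 1.31). Between them, the region 25.4 kb in had a ratio of 2.90 (1.38 to 6.65) from 10 and 30 unactivated counts, and the region 47.8 kb in had 1.24 (0.584 to 2.70). These intervals leave out the spread between cultures and lines. The distal region also holds most of the value that selected the gene, so nothing is read from which intervals include 1.

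Regions in Glb1 that also lie over the noncoding gene Gm30254 are left out of its value, and they lined up with this pattern along the gene. The region at chr9:114455277-114456494, 54.8 kb from the start, had KO to WT ratios of 3.90 (3.36 to 4.54) and 4.16 (3.54 to 4.92) without and with activation. The region at chr9:114451340-114453126 had ratios of 1.95 (1.49 to 2.55) and 1.88 (1.39 to 2.54). Just past the annotated end, at chr9:114475497-114476917, the ratios were 2.29 (1.59 to 3.36) and 1.76 (1.27 to 2.48). With the 2 overlapping regions added to the gene value, a choice made after seeing the data, the log2 KO difference of Glb1 was 1.90 and 1.58. Whether Glb1, Gm30254 or another transcript gave these reads cannot be told apart.

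**Figure D2:**
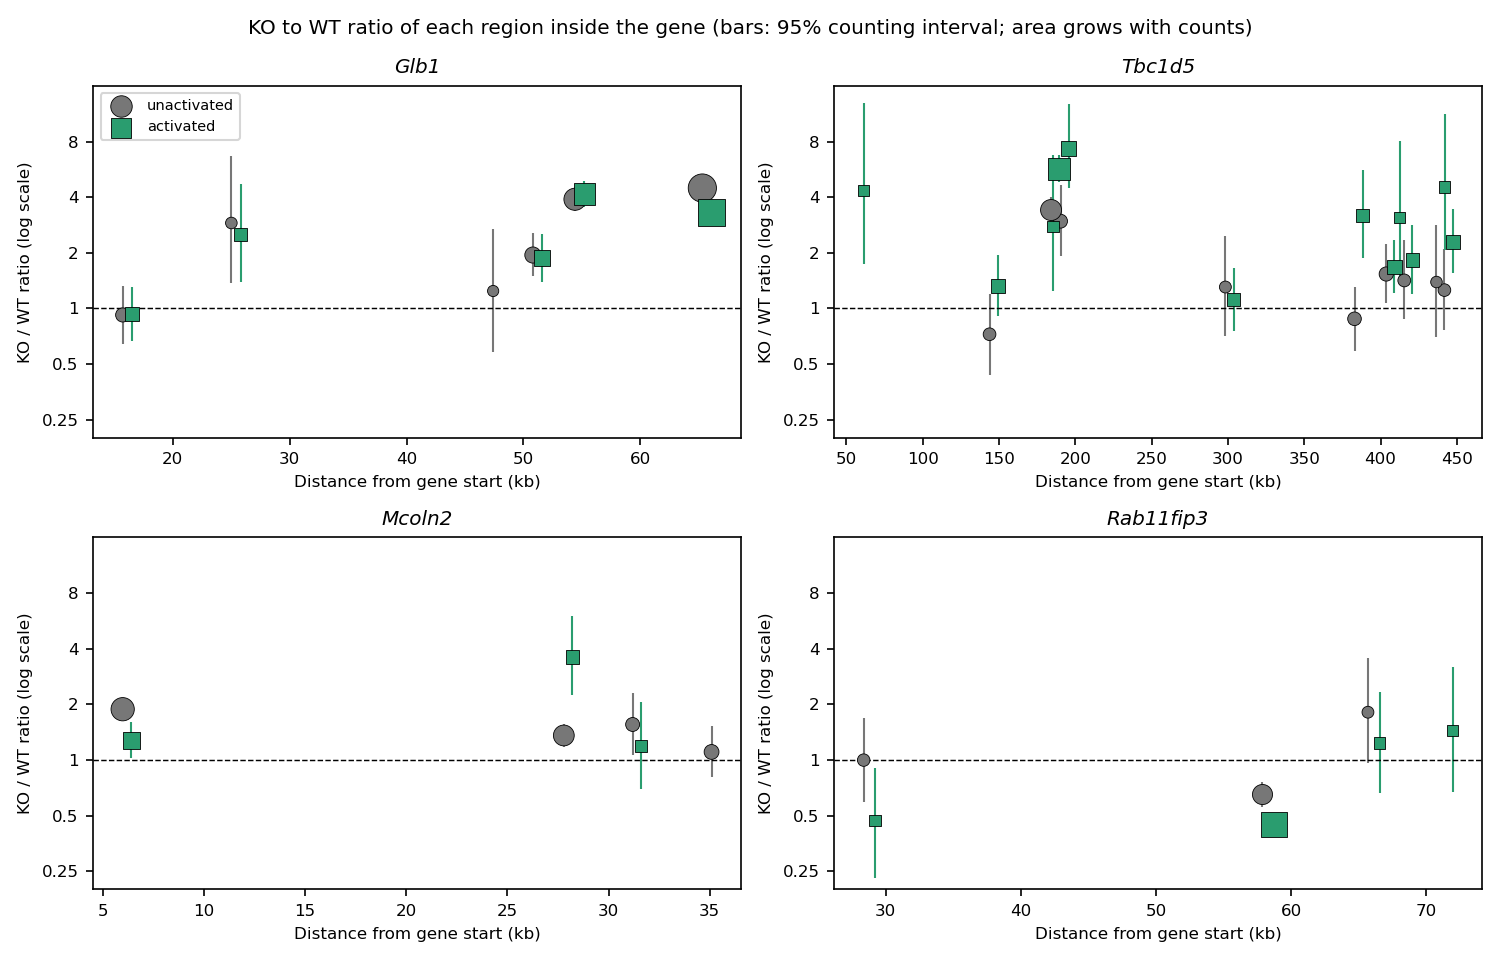
KO to WT ratio (log axis) of each region inside 4 of the genes, those over a second gene included, against the distance of its centre from the gene start in kb; circles are unactivated and squares activated cells, moved slightly apart sideways, bars are 95% counting intervals, and only regions with at least 30 counts are drawn. In Glb1 the ratio is 0.922 near the start and 4.49 in the region 65.7 kb in, and in Tbc1d5 the highest unactivated ratio drawn, 3.41, belongs to the region 186.8 kb in.

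Atp6v0e2 encodes a small subunit of the membrane part of the V-ATPase, the pump that acidifies endosomes and lysosomes. Its span, chr6:48537569-48541801 on the plus strand, holds a single region of 750 bases at chr6:48539180-48539929, so this gene has no second region to set beside it. Unactivated levels were 6.87, 10.6 and 5.55 CPM in parental WT, 7.66, 7.11 and 10.9 CPM in the WT clone, 4.12, 3.42 and 4.47 CPM in KO1 and 2.88, 4.36 and 2.76 CPM in KO2. All 6 KO cultures were below all 6 WT cultures. Activated levels were 4.54, 3.39 and 2.23 CPM in parental WT, 3.34, 3.86 and 2.56 CPM in the WT clone, 5.00, 4.37 and 4.43 CPM in KO1 and 1.75, 2.88 and 2.02 CPM in KO2. Here the genotypes overlapped, and KO1 had the highest and KO2 the lowest mean.

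Atp6v0e2 was lower in KO than WT lines by 2.22-fold without activation (log2 −1.15 ± 0.19). With activation the 2 genotypes had nearly the same mean, at log2 −0.05 ± 0.19, with the KO lines on opposite sides of the WT lines. KO1 was higher than parental WT by 0.44 ± 0.27 and than the WT clone by 0.50 ± 0.27, and KO2 was below them, at −0.61 ± 0.27 and −0.55 ± 0.27. Activation went with a lower level in the WT lines, at −1.29 ± 0.19, and with −0.19 ± 0.19 in the KO lines, where KO1 had 0.20 and KO2 −0.59. The difference of activation between genotypes, 1.10 ± 0.27, was therefore 1.49 with KO1 alone and 0.70 with KO2 alone.

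Mcoln2 encodes mucolipin 2, a cation channel of endosomes and lysosomes that is found in lymphocytes and myeloid cells. Its span is chr3:146149796-146195514 on the plus strand, with 4 regions of 10393 bases. Without activation its level was 5.42, 4.34 and 5.86 CPM in parental WT, 6.54, 4.27 and 5.15 CPM in the WT clone, 8.96, 9.26 and 9.09 CPM in KO1 and 8.59, 7.44 and 6.97 CPM in KO2. With activation it was 0.954, 0.973 and 1.16 CPM in parental WT, 1.13, 0.943 and 0.813 CPM in the WT clone, 2.00, 1.30 and 1.90 CPM in KO1 and 1.65, 0.911 and 1.45 CPM in KO2. Every activated culture of every line lay below every unactivated culture.

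Mcoln2 was lower with activation in the KO lines by 5.48-fold (log2 −2.46 ± 0.17), which is given without a test because the unactivated KO cultures also entered the comparison with WT lines. In this comparison 28.2% of gene values were called at an adjusted p under 0.05 and 4.1% were called lower. All 6 activated KO cultures were below all 6 unactivated ones, as for 2.27% of gene values, and 15.9% did not overlap in either direction. The WT value was −2.40 ± 0.17, and single lines ranged from −2.34 in parental WT to −2.52 in KO2, so the difference between genotypes was −0.05 ± 0.24. The KO to WT difference was 0.67 ± 0.15 without and 0.61 ± 0.18 with activation. The genotypes did not overlap without activation and did overlap with it.

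Along Mcoln2 the lower count with activation was uneven. The proximal region at chr3:146152174-146159903, of 7730 bases, kept a ratio of activated to unactivated counts of 0.291 in WT and 0.198 in KO lines. The region at chr3:146177082-146178458 kept 0.063 (0.039 to 0.096) in WT and 0.168 (0.131 to 0.213) in KO lines, from 355 to 23 and from 498 to 80 counts. The last region, at chr3:146184833-146185456, kept 0.050 (0.013 to 0.134) and 0.166 (0.087 to 0.294), and the region between these, 31.4 kb from the start, kept 0.591 (0.356 to 0.966) and 0.452 (0.289 to 0.692). In the region at chr3:146177082-146178458 the KO to WT ratio was 1.36 (1.18 to 1.56) without and 3.62 (2.25 to 6.03) with activation, on the 23 and 80 counts just given. In the proximal region that ratio was 1.88 (1.68 to 2.11) and 1.28 (1.02 to 1.60).

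Tbc1d5 encodes a protein with a TBC domain that inactivates the late endosomal GTPase Rab7 and binds retromer, the coat that retrieves cargo from endosomes. Its span is chr17:50733124-51181199 on the minus strand, the longest of the 5, with 15 regions of 14845 bases. Unactivated levels were 1.97, 1.60 and 3.28 CPM in parental WT, 3.84, 3.39 and 2.07 CPM in the WT clone, 5.24, 5.36 and 5.59 CPM in KO1 and 5.95, 6.07 and 6.18 CPM in KO2. Activated levels were 1.62, 1.79 and 2.91 CPM in parental WT, 1.61, 1.64 and 3.57 CPM in the WT clone, 6.01, 5.20 and 7.70 CPM in KO1 and 10.5, 6.80 and 10.4 CPM in KO2. In both states every KO culture stood above every WT culture.

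The Tbc1d5 KO to WT difference was 1.10 ± 0.21 on the log2 scale without activation, or 2.15-fold, and 1.80 ± 0.21 with activation, or 3.48-fold. Activation gave −0.28 ± 0.21 in WT and 0.42 ± 0.20 in KO lines, a difference of 0.70 ± 0.29. The region at chr17:50993239-50995526, 186.8 kb from the gene end that holds the start, carried 54.3% of the counts. In this region the KO to WT ratio was 3.41 (2.91 to 4.02) without and 5.70 (4.81 to 6.79) with activation. Its neighbour at chr17:50987838-50988464 had 2.97 (1.93 to 4.68) and 7.34 (4.46 to 12.8). The region at chr17:51033320-51036029, 146.5 kb in, had 0.725 (0.436 to 1.19) and 1.33 (0.905 to 1.95). As above, these intervals cover counting error only. Without its strongest region the log2 KO difference of the gene was 0.40 unactivated and 1.24 activated.

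Rab11fip3 encodes an effector of the GTPase Rab11, which returns material from recycling endosomes to the plasma membrane and to the site of cell division. Its span is chr17:25989036-26070077 on the minus strand, with 5 regions of 7203 bases. Unactivated levels were 2.96, 2.80 and 1.83 CPM in parental WT, 3.45, 2.54 and 2.67 CPM in the WT clone, 2.47, 1.37 and 2.18 CPM in KO1 and 1.92, 2.15 and 1.27 CPM in KO2. Activated levels were 9.97, 5.62 and 4.81 CPM in parental WT, 9.98, 12.5 and 6.57 CPM in the WT clone, 6.16, 5.58 and 3.06 CPM in KO1 and 2.41, 2.64 and 2.38 CPM in KO2. The WT states did not overlap, the genotypes overlapped in both states, and activated KO2 lay within the range of unactivated WT.

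Rab11fip3 was higher in activated than unactivated WT lines by 1.59 ± 0.21 on the log2 scale, or 3.00-fold, and the value for KO lines was 0.89 ± 0.21. By line, KO2 had the smallest value, 0.48, beside 1.30 in KO1, 1.43 in the parental line and 1.74 in the WT clone. The KO to WT difference was −0.51 ± 0.22 without and −1.21 ± 0.20 with activation, and the difference of activation between genotypes was −0.70 ± 0.30. The region at chr17:26009407-26014194, 58.3 kb from the start and 4788 bases long, held 92.0% of the counts, with a KO to WT ratio of 0.650 (0.558 to 0.756) unactivated and 0.447 (0.408 to 0.490) activated. Its ratio of activated to unactivated counts was 3.52 in WT and 2.42 in KO lines. Without that region the KO difference was 0.20 unactivated, of opposite sign, and −0.18 activated.

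Lines of the same genotype give comparisons that the choice of genes did not use, although the same cultures entered the comparisons that it did use. Between the WT clone and parental WT none of the 5 genes was called, with adjusted p of at least 0.982 in either state (edgeR), against 0.134% of gene values called unactivated and 0.0892% activated. Glb1 cultures of these 2 lines did not overlap unactivated, as for 8.67% of gene values. With activation the cultures of all 5 genes overlapped, while 10.5% of gene values did not overlap. The largest of these differences were 0.44 ± 0.30 for Tbc1d5 unactivated and 0.51 ± 0.28 for Rab11fip3 activated. Between KO2 and KO1 without activation the 5 genes had an adjusted p of 0.997 (edgeR), and 0% of gene values were called. Glb1, Tbc1d5 and Mcoln2 did not overlap between these 2 lines all the same, as did 11.7% of gene values.

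With activation the KO clones stood further apart, and again none of the 5 genes was called, against 0.156% of gene values. Atp6v0e2 was lower in KO2 than KO1 by log2 −1.05 ± 0.27 (unadjusted p = 0.000471, adjusted p = 0.16, edgeR), with all 3 KO2 cultures below all 3 KO1 cultures. When only the 6 libraries compared were fitted its adjusted p was 0.0437 (edgeR), and over all alternatives, a block on culture number included, it ran from 0.0437 to 0.688. Rab11fip3 gave −0.99 ± 0.29 (adjusted p = 0.311, edgeR), also without overlap, as for 12.3% of gene values. Glb1 gave 0.62 ± 0.22 (adjusted p = 0.528), Tbc1d5 0.55 ± 0.28 (adjusted p = 0.915) and Mcoln2 −0.37 ± 0.24 (adjusted p = 0.966), all by edgeR.

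**Figure D3:**
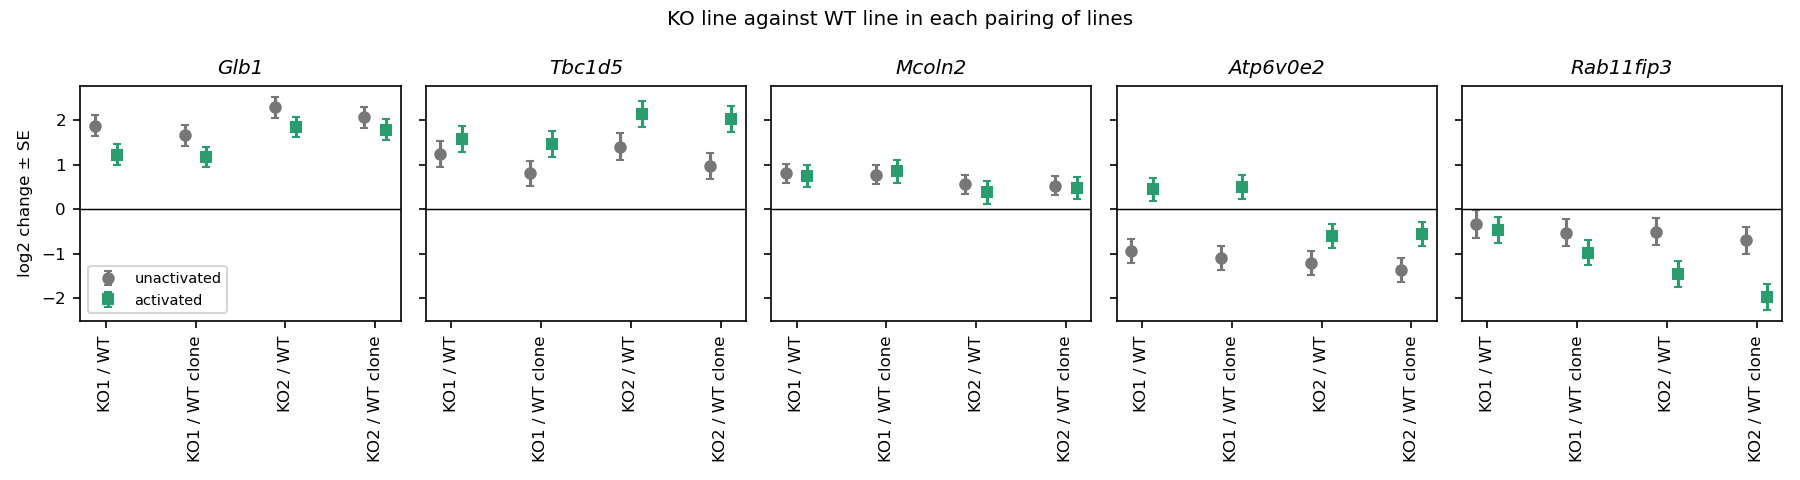
Log2 difference ± SE of each KO line against each WT line for the 5 genes, unactivated (grey circles) and activated (green squares), with a line at 0. Glb1, Tbc1d5 and Mcoln2 lie above 0 in all pairings, Rab11fip3 lies below 0, and activated Atp6v0e2 lies at 0.44 and 0.50 for KO1 and at −0.61 and −0.55 for KO2.

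Set side by side, 4 of the 5 genes (all but Rab11fip3) had KO and WT cultures that did not overlap without activation, as did 3.41% of gene values, while 6.42% were called by the test. With activation 2 of 5 did (Glb1 and Tbc1d5), beside 4.88% of gene values and 8.85% called. Between states of the WT lines 3 of 5 did (Mcoln2, Atp6v0e2 and Rab11fip3), beside 9.92% of gene values and 22.1% called. For the difference of activation 0.758% of gene values were called. Since the 5 genes were picked on these comparisons, nothing is read from those counts.

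Per kilobase of region, Atp6v0e2 had the highest value of the 5 in every group, with means from 2.96 to 11.4 CPM per kb. This depends on which regions were defined, since it has 1 region of 750 bases, against 7203 to 14845 bases for the others. In CPM it was not the highest in every group. In unactivated KO1 and KO2 Glb1 had means of 12.6 and 16.7 CPM, against 4.00 and 3.33 CPM for Atp6v0e2. Within genes, the 4 KO groups of Glb1 all ranked above the 4 WT groups, and among the WT groups neighbouring means overlapped in their cultures. The same held for Tbc1d5. Mcoln2 ranked by state first, with the 4 unactivated groups on top and the unactivated KO lines above the unactivated WT lines. For Atp6v0e2 the 2 unactivated WT groups ranked first and did not overlap with the next group, while all lower neighbours overlapped. All neighbours overlapped in the order of Rab11fip3, which ran from 9.69 ± 2.99 CPM (SD, n = 3) in the activated WT clone to 1.78 CPM in unactivated KO2.

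Across the 24 libraries the 5 genes did not follow a single pattern. Log2 levels of Glb1 and Tbc1d5 had a Pearson r of 0.762 and those of Mcoln2 and Rab11fip3 −0.756, while Atp6v0e2 and Rab11fip3 had −0.03. The libraries share groups and depth, so these are descriptions. Among 4480 other gene values, those most like Glb1 were Gm32834 (r = 0.903), Gm33524 (0.888) and Pigr (0.873). Those most like Tbc1d5 were Nfatc1 (0.923), Vps41 (0.904) and Irf2 (0.891), and those most like Mcoln2 were Cmah (0.936), Ctla4 (0.936) and Hcrtr2 (0.892). Atp6v0e2 was nearest to Gng7 (0.940), Aacs (0.921) and LOC115487945 (0.915), and Rab11fip3 to Notch2 (0.904), Il9r (0.863) and Gm46785 (0.860).

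The 5 genes were then set among the other genes of the pathway, from 7 lists of 259 genes by role, of which 152 had a region and 98 passed the filter. Without activation 3 listed genes were higher and 1 lower in KO than WT lines (4.08% of 98, against 6.42% of all gene values; edgeR adjusted p under 0.05), and the median log2 difference was −0.05 for listed and −0.04 for all genes. With activation 8 were higher and 2 lower (10.2% against 8.85%), with medians of 0.13 and 0.07. For the difference of activation 0 of 98 were called by edgeR and 0 by DESeq2, against 0.758% of all gene values by edgeR. An unadjusted p under 0.05 (edgeR) was reached by 11 listed genes. The share of all gene values at that cut was not counted, so nothing is read from it. Most listed genes were thus not called between genotypes. Since the 5 genes were picked on these comparisons, nothing is read from how they stand beside the listed genes.

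Vps41, a subunit of the HOPS complex that tethers late endosomes to lysosomes, was at 0.197 to 0.534 CPM in unactivated WT and 1.57 to 2.30 CPM in unactivated KO cultures. It rose by 2.42 ± 0.25 on the log2 scale without activation and by 2.99 ± 0.25 with it (adjusted p = 1.62e-08 and 8.89e-11, edgeR). Ap3b1, a subunit of the AP-3 sorting adaptor, rose by 0.86 ± 0.22 and 1.31 ± 0.23 (adjusted p = 0.0128 and 0.000113, edgeR); it falls outside the rule for named genes and was chosen after its values were seen. The KO and WT cultures of Vps41 did not overlap in either state, as for 3.41% of gene values unactivated and 4.88% activated.

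Laptm5, a lysosomal membrane protein of blood cells that lowers antigen receptor levels, was the listed gene that fell in unactivated KO lines, by 0.62 ± 0.16 (adjusted p = 0.013, edgeR), and with only 1 line of either genotype kept this call was lost. With activation Ctsc, the cathepsin that activates serine proteases, rose by 1.73 ± 0.27 (adjusted p = 9.96e-05, edgeR), and its call was lost when the counts of each line were summed. Relatives of Tbc1d5 with a TBC domain moved in both directions: Tbc1d10a rose by 0.88 ± 0.21 and Tbc1d2b by 0.72 ± 0.21, and Tbc1d4 fell by 1.14 ± 0.32 (adjusted p = 0.00355, 0.0213 and 0.0271, edgeR). The calls of Tbc1d2b and Tbc1d4 were lost without some single cultures, that of Tbc1d2b also with DESeq2 and with counts summed per line, that of Tbc1d4 also with no filter and with only the libraries of the comparison, and each of the 3 in 2 fits that kept a single line of 1 genotype. Of the 13 tested genes of that list, 3 were higher and 1 lower (30.8% called, the largest share of any list, against 8.85% of all gene values).

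Activation moved more of the listed genes, as it did all gene values. In WT lines 13 were higher and 6 lower (19.4% against 22.1% of all), and in KO lines 26 higher and 3 lower (29.6% against 28.2%). The median of all gene values was itself above 0, at 0.18 in WT and 0.28 in KO lines on the log2 scale, and −0.02 and −0.04 when TMM factors were taken from gene values, a scaling added after seeing the data. Under that scaling the listed genes split into 8 higher and 10 lower in WT and 15 higher and 10 lower in KO lines, and the share of higher genes among all called was 52.4% in place of 74.7% and 53.8% in place of 85.5%. For KO against WT lines with activation that share was 60.5% in place of 72.5%, and 8 listed genes were higher and 3 lower. None of the 5 genes changed sign in any of these comparisons, and Mcoln2 then gave −2.61 in WT and −2.76 in KO lines.

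Among the named genes Slc29a3, a nucleoside transporter of lysosomes, rose with activation by 1.64 ± 0.17 in WT and 1.68 ± 0.17 in KO lines (adjusted p = 2.23e-09 and 7.65e-10, edgeR). Pikfyve, the kinase that makes PI(3,5)P2 on endolysosomes, the lipid that opens mucolipin channels, rose by 1.25 ± 0.20 and 1.24 ± 0.20 (adjusted p = 1.4e-05 and 1.05e-05, edgeR). Ctsh, a cathepsin, rose by 1.12 ± 0.20 and 0.97 ± 0.21 (adjusted p = 7.1e-05 and 0.000577, edgeR). Rab11fip4, the closest relative of Rab11fip3 on the list, rose by 1.14 ± 0.19 in WT and 1.04 ± 0.17 in KO lines (adjusted p = 1.16e-05 and 1.46e-05, edgeR), and its KO to WT difference was not called in either state (0.59 and 0.49, adjusted p = 0.0598 and 0.0659, edgeR). Ctsc fell by 1.91 ± 0.27 in WT lines (adjusted p = 5.94e-06, edgeR), and Tfeb, a regulator of lysosomal genes, rose by 1.14 ± 0.23 in KO lines (adjusted p = 0.00026, edgeR), where the WT value was 0.45 (adjusted p = 0.175, edgeR). For Tfeb the difference between genotypes was not called.

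Among the other genes of the named roles, Psap rose by 0.71 in WT lines, Tbc1d4 by 2.00 and Tbc1d16 by 1.00, and Pik3c3 fell by 0.94, Rabgef1 by 0.63 and Vps37b by 0.55 (adjusted p of 0.0339 or less, edgeR). In KO lines Tbc1d10a rose by 1.73, Tbc1d2b by 1.07, Tbc1d4 by 1.77, Myo5a by 0.79, Ctss by 0.70, Vps16 by 0.58, Rab8b by 1.02 and Hps3 by 0.73, and Slc15a4 fell by 0.48 (adjusted p of 0.0254 or less, edgeR). The calls of Vps37b in WT and of Vps16, Rab8b and Slc15a4 in KO lines were lost without some single cultures. Laptm5 rose by 0.43 in WT and 0.77 in KO lines (adjusted p = 0.0454 and 0.000364, edgeR). Under scaling from gene values the calls of Laptm5 in WT and of Hps3 and Vps16 in KO lines were lost, as was that of Tbc1d2b between genotypes. The Laptm5 call in WT lines was also lost in 8 fits without a single culture, with counts summed per line, with no filter on low counts, with only the libraries of the comparison and with relative log expression scaling. Mcoln3, a relative of Mcoln2, gave 0.07 with activation in WT and −0.19 in KO lines (adjusted p = 0.925 and 0.816, edgeR). Of the 13 tested genes of the list of Tbc1d5, 7 were higher and 0 lower with activation in KO lines. That is 53.8% called, the largest share of any list, against 28.2% of all gene values. Under scaling from gene values 4 were higher and 1 lower.

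**Figure D4:**
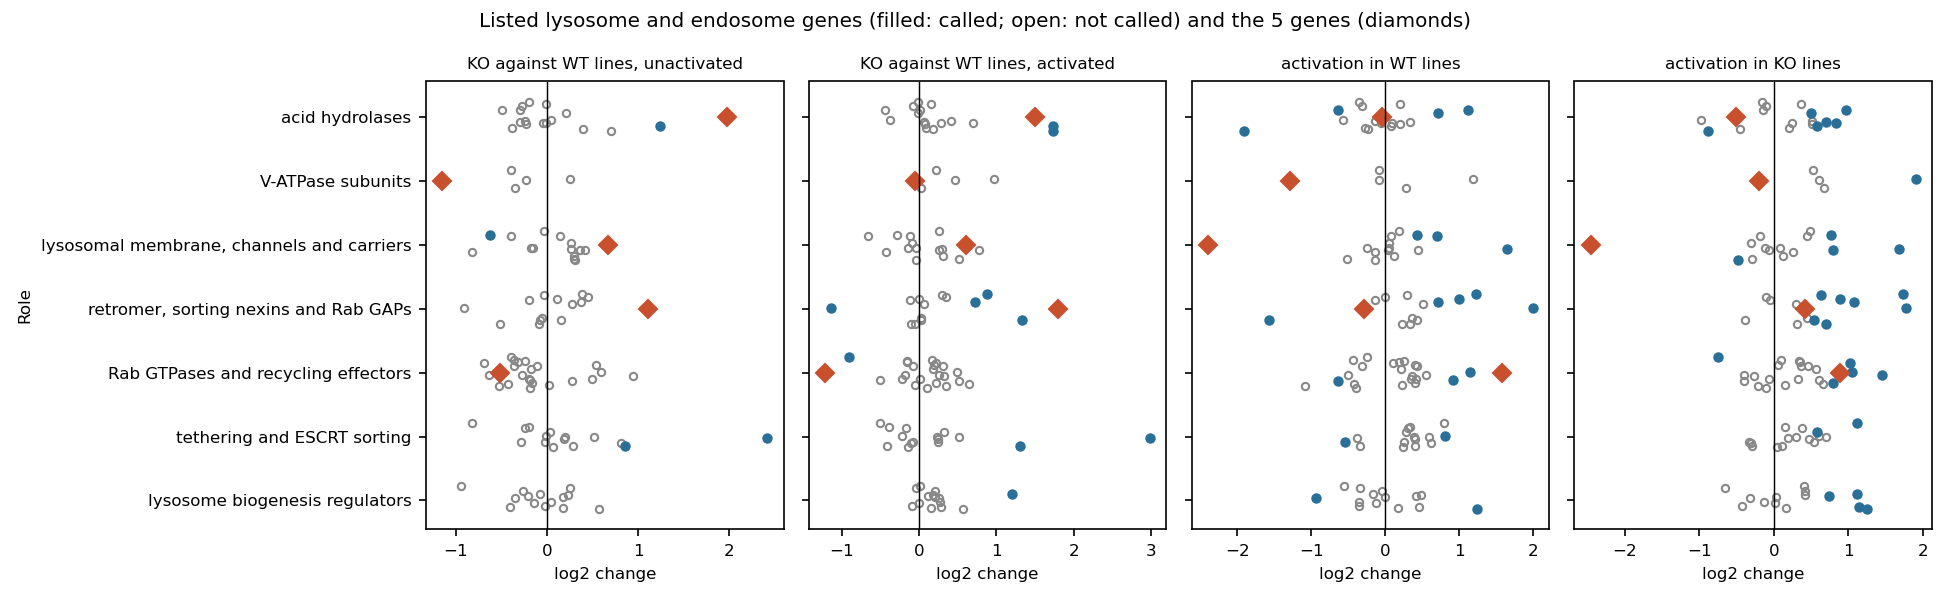
Log2 difference of 98 listed genes by role (rows) in 4 comparisons (panels); filled points were called at an adjusted p under 0.05, open points were not, and red diamonds are the 5 genes, which were not tested here. Vps41 at 2.42 is the listed gene farthest to the right in the panel of KO against WT lines without activation. Glb1, at 1.97 there, was picked on this comparison, so its place beside the listed genes is not read.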

How the data were processed

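The 24 libraries of total RNA were stranded and single-end, per the labels' protocols; kallisto 0.43.0, DESeq2 and GRCm38.p5 are named in the submitters' processing notes, and nothing read here states the index, how the regions were defined or the strand setting. The authors deposited estimated counts (expected counts, not normalized) for 171152 targets per library, 49745 of them genomic regions of 251 to 20296 bases. Regions lying wholly in exactly 1 RefSeq gene of GRCm38.p6 (26591, with 12 locus-wide entries of the annotation left out) were summed per gene and rounded. TMM factors came from all targets that passed edgeR's filterByExpr. The 4485 gene values past that filter were fitted with 8 group means by edgeR's robust quasi-likelihood test (edgeR 4.0.16, limma 3.58.1, R 4.3.3), with Benjamini-Hochberg adjustment over all of them and a call at 0.05. SE is the size of the log2 change divided by the square root of F. Correlations used log2 of CPM plus 0.1. Promoter sequences are RefSeq's, and all 5 genes were matched by symbol.

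The genes and lists were chosen with earlier results of these data known. Listed genes with a mean of at least 1 CPM and an adjusted p under 0.05 were named, up to 3 per role with the smallest p in each comparison; some genes that this rule selects are not reported here. The 5 genes were tested between lines of 1 genotype only. Replicate numbers recur in all groups. Deviations of same-numbered cultures correlated at over 0.1 in 17 of 18 activated pairs (median 0.279), including all 3 pairs of the 2 WT lines and of the 2 KO lines. They did so in 11 of 18 unactivated pairs and 23 of 48 pairs between states. The fits behind the values given have no term for these numbers. Their SE and p-values therefore leave out any pairing by number, also with activation. A block on the numbers was fitted only as an alternative. The labels do not say what a number stands for. The script was tested on simulated data. DESeq2 1.42.0, other scaling, no filter, a replicate block, single lines and left-out cultures were tried.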

Additional observations from a re-analysis of the deposited data

How the results depend on the processing

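Of the results for the 5 genes under the alternatives, 914 stayed within the spread or on the same side, 30 moved, 4 reversed and 1 became called; of those for named listed genes 748 kept and 84 lost their call. Without the strongest region of each gene, the log2 KO difference unactivated was 0.22 for Glb1, 0.40 for Tbc1d5, 0.40 for Mcoln2 and, reversed, 0.20 for Rab11fip3; activated it was 0.22, 1.24, 1.17 and −0.18. Activation then gave −3.26 for Mcoln2 and 0.13 for Rab11fip3 in WT lines and, in KO lines, 0.66 for Tbc1d5 and the reversed 0.13 for Glb1 and −0.26 for Rab11fip3; the difference was 0.0062 for Glb1, reversed, and 0.77 for Mcoln2. Atp6v0e2 has only 1 region and no such value. With KO1 or KO2 alone, the KO difference of Glb1 unactivated was 1.77 or 2.18 (2.08 or 1.86 with parental WT or the WT clone alone), and that activated was 0.47 or −0.58 for Atp6v0e2 and −0.72 or −1.71 for Rab11fip3. Activation in KO1 or KO2 was 0.20 or −0.59 for Atp6v0e2 and 1.30 or 0.48 for Rab11fip3, and the difference of activation was 1.49 or 0.70 and −0.29 or −1.11.

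The number of listed genes called in KO against WT unactivated was 7 with scaling from gene values, 2 with KO1 alone and 2 with parental WT alone, and 3 to 7 when 1 culture was left out, with 7 without the third unactivated parental WT culture. With activation it was 6 with the WT clone alone. For activation it was 9 with parental WT and 10 with the WT clone alone in WT lines, and 17 with KO1 and 14 with KO2 alone in KO lines. For the difference of activation it was 0 to 1 when 1 culture was left out, with 1 without the first unactivated parental WT culture. Between the activated WT clone and parental WT 1 listed gene, Tbc1d8, was called (2.22 ± 0.43, edgeR adjusted p = 0.0176), 0 with only the libraries of the comparison and 0 to 1 when 1 culture was left out. Scaling from gene values moved activation to −0.25 for Glb1 in WT lines and to 0.10 for Tbc1d5 and −0.51 for Atp6v0e2 in KO lines. Atp6v0e2 between activated KO2 and KO1, −1.05, was called with only the libraries of the comparison. The causes of these shifts were not tested.

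With a replicate block, the number of listed genes called was 1 for the difference of activation and 2 between the activated WT lines; a replicate block within each state, added after seeing the data, gave 1 and 2 there and 7 between unactivated KO and WT lines. The 5 genes were tested only between lines of 1 genotype and not called there, so no call could be lost. None gained a call under either block. A count without regions over annotated exons was planned and not run, since no exon annotation was used here. Depth limits what single regions show, since several hold under 30 counts per state.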

Other observations

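The region make-up of 2 listed genes was looked at after their values were seen. In Vps41, the region at chr13:18781060-18781880 held 83.9% of the counts, with 32 in unactivated WT, 308 in unactivated KO, 27 in activated WT and 364 in activated KO libraries. Its second region at chr13:18809853-18810563 held 24, 26, 16 and 26 in the same order, and the third, at chr13:18820494-18821121, held 6, 14, 8 and 20. Most of the higher Vps41 count in KO lines came from the first of these. Ctsc rests on a single region at chr7:88284813-88285789.

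Tbc1d8, a relative of Tbc1d5, was at 0.145, 0.157 and 0.0297 CPM in activated parental WT and at 0.567, 0.548 and 0.465 CPM in the activated WT clone. The activated KO lines had means of 0.589 and 0.633 CPM. Its KO to WT difference with activation, 1.33 ± 0.27 (edgeR adjusted p = 0.000896), therefore stands beside a difference of 2.22 ± 0.43 between the WT lines themselves.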
